A study of Mus musculus with 32 samples.

Results

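Mast cells and basophils are granulocytes that carry the high-affinity IgE receptor and release histamine and proteases from stored granules. The 8 genes described here mark these cells: the mast cell chymase Cma1, the mast cell tryptase Tpsb2, the mast cell carboxypeptidase Cpa3, the basophil proteases Mcpt8 and Prss34, the IgE receptor chains Fcer1a and Ms4a2, and the granule serine protease Gzmb. They were taken by name from the 33924 genes counted in every library, and all 8 were present. In mice both cell types descend from haematopoietic stem cells through progenitors in the marrow, depend on the transcription factor GATA2, and respond to interleukin 3. Mast cells keep the receptor Kit on their surface, which basophils largely lose. Basophil numbers can be raised in myeloproliferative neoplasms, the blood cancers that JAK2 V617F drives.

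RNA was sequenced from 32 sorted populations of mouse marrow, 16 of LSK cells (lineage-negative, Sca1+, Kit+, a gate that holds stem and multipotent cells) and 16 of MEP (megakaryocyte-erythroid progenitors). Every group carried Jak2v617f, switched on by Dre mRNA in culture before the cells went into recipients given lethal irradiation. Batch A held mice at day 3 of tamoxifen (3 LSK and 4 MEP libraries) and day 7 of tamoxifen (4 LSK and 3 MEP), in which Cre removed the Jak2v617f allele, and vehicle mice at day 0 (4 LSK and 3 MEP). Batch C held mice at day 7 of the JAK inhibitor ruxolitinib (3 LSK and 3 MEP), which keep the mutant allele, and vehicle mice at day 0 (2 LSK and 3 MEP). The Cre driver, the strain, age and sex of the mice, and the share of host cells left in the recipients are not given in the labels. Tamoxifen and ruxolitinib were each set against vehicle of the same batch. No group received tamoxifen without the allele that Cre removes, so loss of Jak2V617F and tamoxifen itself cannot be told apart, nor can treatment and day.

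The genes lie at 5 places in the genome (mm10, GRCm38). Cma1 (chr14:55941451-55944675), Mcpt8 (chr14:56082166-56085273) and Gzmb (chr14:56258838-56262260), all on the minus strand, sit in one run of granule protease genes, with 137.5 kb between Cma1 and Mcpt8 and 173.6 kb between Mcpt8 and Gzmb. Prss34 (chr17:25298394-25300165) and Tpsb2 (chr17:25366305-25369098), both on the plus strand, are 66.1 kb apart in the tryptase cluster. Cpa3 (chr3:20215620-20242181), Fcer1a (chr1:173221284-173227214) and Ms4a2 (chr19:11615523-11623719) stand alone on the minus strand.

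The promoters of 4 genes are shown because their changes differed below. Cma1, Cpa3 and Gzmb were among the genes higher than vehicle without overlap in LSK at day 7 of tamoxifen and under ruxolitinib. Prss34 overlapped vehicle there and was the one gene called lower in MEP under ruxolitinib. Each is the 250 bases before the start of the gene in RefSeq's table for GRCm38.p6, 5′ to 3′ on the gene's own strand, at chr14:55944676-55944925 (minus, Cma1), chr3:20242182-20242431 (minus, Cpa3), chr14:56262335-56262584 (minus, Gzmb) and chr17:25298144-25298393 (plus, Prss34). Capitals mark GATAA on either strand (TTATC where it lies on the other), the core letters of the site that GATA factors bind.
Cma1: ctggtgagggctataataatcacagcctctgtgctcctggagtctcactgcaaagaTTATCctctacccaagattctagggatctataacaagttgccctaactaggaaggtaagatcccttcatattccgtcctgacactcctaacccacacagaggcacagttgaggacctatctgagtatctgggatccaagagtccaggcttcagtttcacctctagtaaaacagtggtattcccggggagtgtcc
Cpa3: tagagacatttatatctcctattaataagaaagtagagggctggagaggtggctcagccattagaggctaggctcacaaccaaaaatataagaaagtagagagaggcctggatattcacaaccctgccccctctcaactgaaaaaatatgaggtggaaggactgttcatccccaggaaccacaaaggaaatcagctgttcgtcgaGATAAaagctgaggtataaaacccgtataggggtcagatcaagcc
Gzmb: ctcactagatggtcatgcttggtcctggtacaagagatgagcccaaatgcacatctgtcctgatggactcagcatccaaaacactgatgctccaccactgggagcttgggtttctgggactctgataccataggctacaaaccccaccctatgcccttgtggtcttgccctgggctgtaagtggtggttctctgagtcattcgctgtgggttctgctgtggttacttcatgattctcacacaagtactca
Prss34: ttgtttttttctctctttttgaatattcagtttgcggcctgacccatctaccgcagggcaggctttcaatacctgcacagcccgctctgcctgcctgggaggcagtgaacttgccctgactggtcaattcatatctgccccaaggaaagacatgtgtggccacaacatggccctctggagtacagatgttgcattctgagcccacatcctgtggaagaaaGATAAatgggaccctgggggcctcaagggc
The table held promoters for 7 of the 8 genes, with no entry for Tpsb2. GATAA occurred in 5 of these 7 (Cma1, Cpa3, Fcer1a, Ms4a2 and Prss34), against 22.6% of all 32851 promoters of that length. In Cpa3 it lay 45 to 41 bases before the start, and in Prss34 30 to 26 bases before. Ms4a2 held 3 copies, and Gzmb and Mcpt8 held none. TGTGGT, the letters of the RUNX site, occurred in 4 of 7 (Cpa3, Mcpt8, Fcer1a and Gzmb), against 14.0% of all. The E-box letters CAGCTG occurred in 2 of 7 (Cpa3 and Fcer1a), against 13.0%, and CATGTG, the letters of the site that MITF binds, in 2 of 7 (Fcer1a and Prss34), against 12.3%. TTCNNNGAA, the letters of the STAT site, occurred in 0 of 7, against 7.0%. All were searched on both strands, and no match of one motif overlapped a match of another in these genes. The matches are letters in a window and not measured binding.

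Counted reads per library came to 11.16 to 28.84 M in batch A and 26.51 to 55.47 M in batch C. Levels are given as CPM, read counts scaled to library size and between libraries of a cell type. The sorts carried their own markers in part: 6 erythroid genes summed to 1358 to 7618 CPM in MEP and 155.9 to 1069 CPM in LSK, and 6 stem cell genes to 12.35 to 42.65 CPM in MEP and 138.4 to 1385 CPM in LSK. Megakaryocyte genes went against the MEP label, summing to 37.1 to 380.2 CPM in MEP and 538.1 to 1664 CPM in LSK. Jak2 counts moved by −0.51 to 0.24 on the log2 scale over the 6 treatment comparisons with no call, but they count both alleles and cannot show the deletion. Numbers in the labels, taken here to mark animals, recur in both vehicle batches, and number 18 also occurs among tamoxifen day 7 mice. Whether equal numbers in different groups are one animal was not tested, so p-values measure the spread between these libraries.

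In LSK cells, all 8 genes were readily measured. The mast cell proteases, Gzmb and the IgE receptor chains were higher at day 7 of tamoxifen and under ruxolitinib than in vehicle libraries of the same batch, without overlap. The basophil proteases Mcpt8 and Prss34 overlapped vehicle in each comparison. Of the 8, Gzmb alone passed the test, and only at day 7 of tamoxifen. Because these are bulk samples, fewer cells of a type and less RNA per cell cannot be told apart.

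**Figure D1:**
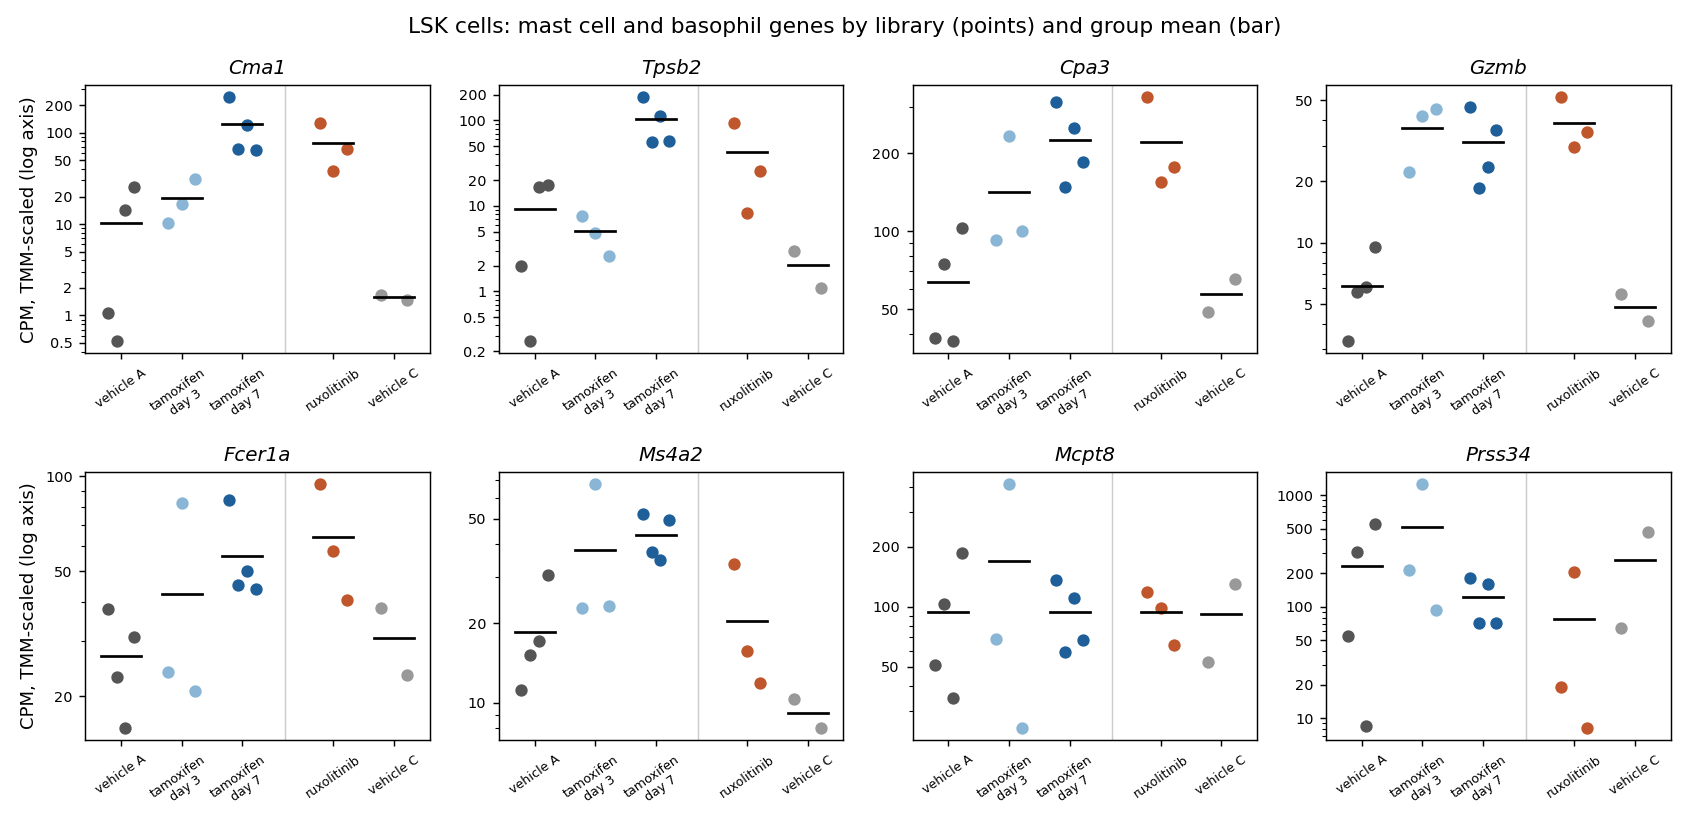
Level of each gene in the 16 LSK libraries (CPM, log axis), by group, with 1 point per library and a bar at the group mean. Cma1, Tpsb2, Cpa3, Gzmb, Fcer1a and Ms4a2 stand above vehicle of the same batch at tamoxifen day 7 and under ruxolitinib in every library. Mcpt8 and Prss34 do not.

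Cma1, the mast cell chymase, had 244, 66.9, 122 and 64.8 CPM in the 4 LSK libraries of tamoxifen day 7, against 1.06, 0.522, 14.3 and 25.2 CPM in the 4 of vehicle A. The lowest day 7 library was thus above the highest vehicle library, and the vehicle libraries themselves spread 48.3-fold. The means were 124.4 ± 84.2 CPM at day 7 and 10.3 ± 11.8 CPM in vehicle A (SD, n = 4 each), a 12.1-fold ratio. The log2 change was 3.60 ± 0.85 (SE) with an adjusted p of 0.116 (edgeR quasi-likelihood test, Benjamini-Hochberg over 26930 genes), which missed the 0.05 threshold. Over 15 alternative edgeR and DESeq2 fits the adjusted p ran from 0.00994 to 0.367, and 3 of them called Cma1. Among these was the edgeR fit without tamoxifen day 7 replicate 4 (0.0161). That fit called 911 genes in all, against 28 in the main fit. At day 3 the 3 libraries had 10.3, 16.8 and 30.8 CPM, overlapping vehicle A, with a log2 change of 0.91 ± 0.83. Under ruxolitinib Cma1 had 127.7, 38.1 and 66.4 CPM, against 1.685 and 1.49 CPM in vehicle C. That was a 48.7-fold ratio of means and a log2 change of 5.60 ± 1.31, with an edgeR adjusted p of 0.282. The 2 vehicle C libraries carry numbers 12 and 18, which in vehicle A had the lowest Cma1, at 1.06 and 0.522 CPM. Numbers 14 and 8, with 14.3 and 25.2 CPM in vehicle A, have no library in vehicle C, so the ratio rests on a low reference.

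Tpsb2, the tryptase of connective tissue mast cells, followed the same libraries. It had 186.9, 55.7, 113.7 and 57.0 CPM at day 7, against 2.01, 0.261, 16.8 and 17.5 CPM in vehicle A, with no overlap. The log2 change was 3.50 ± 0.91 (edgeR adjusted p = 0.156). Over 15 alternative edgeR and DESeq2 fits the adjusted p ran from 0.0279 to 0.448, and 2 of them called Tpsb2. Among these was the edgeR fit without tamoxifen day 7 replicate 4 (0.0325). Day 3 differed from Cma1 in sign, with 7.70, 4.80 and 2.57 CPM, all within the range of vehicle A. Under ruxolitinib Tpsb2 had 93.8, 8.22 and 25.45 CPM, against 2.98 and 1.09 CPM in vehicle C. For Tpsb2 too, the vehicle C numbers 12 and 18 were the lowest in vehicle A, at 2.01 and 0.261 CPM. The second ruxolitinib library was the lowest for both Cma1 and Tpsb2, and the log2 change of 4.38 ± 1.31 had an adjusted p of 0.44. Tpsb2 has a close copy, Tpsab1, and how shared reads were counted is not stated in the labels. Tpsab1 averaged 4.40 ± 1.79 CPM at day 7 and 6.86 ± 2.76 CPM in vehicle A (n = 4 each), so the high Tpsb2 counts of day 7 had no counterpart in its copy.

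Cpa3, which trims peptides in mast cell granules, was higher at day 7 in every LSK library: 313.9, 147.8, 249.0 and 184.1 CPM, against 38.9, 74.6, 37.7 and 103.1 CPM in vehicle A. The ratio of means was 3.52 and the log2 change 1.81 ± 0.39, with an edgeR adjusted p of 0.0758. Over 15 alternative edgeR and DESeq2 fits the adjusted p ran from 0.00231 to 0.293, and 6 of them called Cpa3. Among these was the edgeR fit without tamoxifen day 7 replicate 4 (0.0104). Day 3 lay between, at 92.6, 232.8 and 99.9 CPM, with 1 of 3 libraries above all of vehicle A and a log2 change of 1.15 ± 0.40 (adjusted p = 0.85). Ruxolitinib libraries had 328.3, 155.2 and 177.0 CPM, against 49.0 and 65.3 CPM in vehicle C, a 3.85-fold ratio and a log2 change of 1.95 ± 0.52 (adjusted p = 0.434). Unlike Cma1, Cpa3 was plain in vehicle libraries too, the lowest of which had 37.7 CPM.

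Gzmb is best known from cytotoxic lymphocytes, and mouse mast cells and some progenitors also make it. It rose in LSK at day 7 of tamoxifen, to 46.5, 18.6, 23.6 and 35.9 CPM, against 3.29, 5.74, 6.06 and 9.55 CPM in vehicle A. The means were 31.2 ± 12.6 CPM at day 7 and 6.16 ± 2.58 CPM in vehicle A (n = 4 each), and the log2 change of 2.34 ± 0.36 had an edgeR adjusted p of 0.0219. The call was lost without tamoxifen day 7 replicate 1 (adjusted p = 0.112) and without vehicle A replicate 3 (0.0504), and when the 2 groups were fitted alone (0.0536). Day 3 was as high, at 22.3, 42.1 and 45.45 CPM, all above vehicle A. There Gzmb had the lowest p of all 26930 genes, with a log2 change of 2.57 ± 0.38 and an adjusted p of 0.0688. Leaving out day 3 replicate 1, vehicle A replicate 3 or vehicle A replicate 4 brought that to 0.0487, 0.0146 and 0.0479. Over 14 alternative edgeR and DESeq2 fits it ran up to 0.608, and 5 of them called Gzmb. Under ruxolitinib the 3 libraries had 51.8, 29.5 and 34.9 CPM, against 5.58 and 4.15 CPM in vehicle C, with no overlap, a log2 change of 2.99 ± 0.51 and an adjusted p of 0.0514.

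Genes of cytotoxic T and NK cells were looked at beside Gzmb. Over that list of 10, the summed level was 509.5 to 778.8 CPM in LSK at day 7 and 217.6 to 478.5 CPM in vehicle A, and 0 of 10 passed the test. Nkg7, a granule gene that myeloid progenitors also express, made up most of it, with 478.5 to 741.6 CPM at day 7 and 172.3 to 457.8 CPM in vehicle A. The defining genes were low but not all near 0. Klrb1c, a receptor of NK cells, had 10.45 to 17.25 CPM at day 7 and 8.35 to 16.8 CPM in vehicle A. Ncr1, another NK receptor, had 1.77 to 3.505 CPM at day 7 and 0.558 to 8.14 CPM in vehicle A, and Cd8a had 1.095 to 3.50 CPM at day 7 and 0.0558 to 6.87 CPM in vehicle A. The T cell receptor chains Cd3e and Cd3g reached at most 2.76 and 4.54 CPM at day 7 and 2.68 and 4.02 CPM in vehicle A, Klrd1 1.402 CPM at day 7 and 2.08 CPM in vehicle A, and Gzma 0.878 CPM at day 7 and 1.04 CPM in vehicle A. Prf1, the perforin that works with granzyme B, averaged 1.83 CPM at day 7 and 3.74 CPM in vehicle A. At day 3 the list summed to 241.1 to 434.9 CPM, within the vehicle A range. The part of such cells in the Gzmb values was not tested.

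Fcer1a and Ms4a2 are the alpha and beta chains of the IgE receptor, shared by mast cells and basophils. Fcer1a had 84.25, 45.1, 50.15 and 43.8 CPM in LSK at day 7, against 37.9, 23.1, 15.9 and 31.0 CPM in vehicle A. The groups did not overlap, and the log2 change of 1.05 ± 0.41 did not pass (edgeR adjusted p = 0.376). Ms4a2 had 52.0, 37.4, 34.8 and 49.3 CPM at day 7, against 11.2, 15.1, 17.1 and 30.7 CPM in vehicle A (log2 change 1.23 ± 0.40, adjusted p = 0.239). Under ruxolitinib Fcer1a had 94.6, 58.0 and 40.4 CPM, against 38.1 and 23.3 CPM in vehicle C, and Ms4a2 had 33.6, 15.8 and 11.8 CPM, against 10.3 and 8.005 CPM in vehicle C. Both were again higher in every library, and neither passed (adjusted p = 0.567 and 0.546). The third chain, Fcer1g, which other Fc receptors also use, did not follow them: it averaged 49.25 ± 11.8 CPM at day 7 and 69.5 ± 59.8 CPM in vehicle A (n = 4 each), a log2 change of −0.50 ± 0.52.

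Mcpt8, the protease by which mouse basophils are usually traced, showed no shift at day 7: the LSK libraries had 136.1, 58.8, 111.0 and 68.05 CPM, against 50.75, 103.7, 34.65 and 185.4 CPM in vehicle A. The means were 93.5 ± 36.4 CPM at day 7 and 93.6 ± 67.9 CPM in vehicle A (n = 4 each), and the 95% interval of the log2 difference ran from −1.25 to 1.24, which leaves room for a change of either sign. Under ruxolitinib it had 117.9, 98.5 and 64.2 CPM, against 52.4 and 130.8 CPM in vehicle C, with an interval of −1.58 to 1.64. At day 3 the 3 libraries had 68.6, 414.6 and 24.5 CPM, so that replicate 2 lay above all of vehicle A and replicate 3 below it.

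Prss34, the other basophil protease, was uneven within groups. LSK libraries of vehicle A had 54.3, 311.2, 8.53 and 552.9 CPM, a 64.8-fold spread within one group that only Tpsb2 passed (67.1-fold), those of day 3 had 214.7, 1259 and 93.3 CPM, and those of day 7 had 181.6, 72.0, 160.2 and 72.2 CPM. The log2 change was −0.94 ± 1.05 at day 7 and 1.17 ± 1.12 at day 3, far from any call. Without tamoxifen day 3 replicate 2, which was highest for Prss34, Mcpt8, Fcer1a, Ms4a2 and Cpa3, the day 3 changes of Prss34, Mcpt8 and Fcer1a turned to −0.60, −1.02 and −0.30. Under ruxolitinib Prss34 had 19.0, 205.2 and 8.20 CPM, against 64.8 and 462.4 CPM in vehicle C. Its log2 change of −1.77 ± 1.33 turned to 0.26 without vehicle C replicate 2. Eosinophil genes were as uneven: 7 of them summed to 6.70 to 56.4 CPM under ruxolitinib and 141.8 to 7514 CPM in vehicle C, and to 155.2 to 387.3 CPM at day 7 and 39.2 to 6299 CPM in vehicle A, with 0 of 7 called. Their part in the spread of Prss34 was not tested.

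Counted over the set, 6 of 8 genes were higher without overlap at day 7 in LSK, against 1.33% of all genes tested, and 1 of 8 was called, against 0.104% of all genes called in either direction. The members' median log2 change was 1.52 at day 7, against −0.09 over all 26930 genes. Under ruxolitinib 6 of 8 were higher without overlap, against 8.47%, with a median of 1.56 against −0.25. There 0 of 8 were called by edgeR, against 0.0223% of all genes. An unadjusted p under 0.05 was found for 5, the weakest ranking 2022 of 26930 genes by p. DESeq2 called 3, against 132 of all 26930 genes. At day 3, 1 of 8 was higher without overlap, against 1.97%, and 0 of 8 were called by edgeR, as were 0.0% of all genes. There 3 had an unadjusted p under 0.05, the weakest ranking 572 of 26930 genes by p. DESeq2 called 1, against 93 of all 26930 genes, and the median was 0.97 against −0.02. The 3 comparisons do not stand apart: day 3 and day 7 share vehicle A, and both vehicle C libraries carry numbers, 12 and 18, that vehicle A also holds. For number 18, Fcer1a had 23.3 CPM in vehicle C and 23.1 CPM in vehicle A, while Ms4a2 had 8.005 and 15.1 CPM. Whether these are the same mice was not tested.

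Genes of neutrophil progenitors and of erythroid cells moved in the same LSK libraries. The neutrophil progenitor list of 10 summed to 7505 to 15200 CPM at day 7 and 1253 to 4288 CPM in vehicle A. There 4 of 10 rose (S100a8, Ms4a3, Elane and Camp), against 0.104% of all genes called in either direction. The 6 erythroid genes summed to 155.9 to 298.4 CPM at day 7 and 306.0 to 877.1 CPM in vehicle A, without overlap, and 1 of 6 was called lower (Tfrc). Under ruxolitinib the neutrophil progenitor sum was 3258 to 7959 CPM, against 1548 to 5745 CPM in vehicle C, with 0 of 10 called. The erythroid sum was 176.1 to 354.2 CPM, against 386.3 to 512.0 CPM in vehicle C, with 0 of 6 called. At day 3, 7 macrophage genes summed to 1233 to 8372 CPM, against 114.8 to 3237 CPM in vehicle A, and 5 genes of B and plasma cells to 35.8 to 231.5 CPM, against 422.5 to 7848 CPM in vehicle A, where the B and plasma cell sums did not overlap. The 7 eosinophil genes summed to 112.9 to 584.5 CPM at day 3, and their median log2 change was −3.41. None of these 3 lists had a gene called at day 3. Their part in the mast cell and basophil values was not tested.

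**Figure D2:**
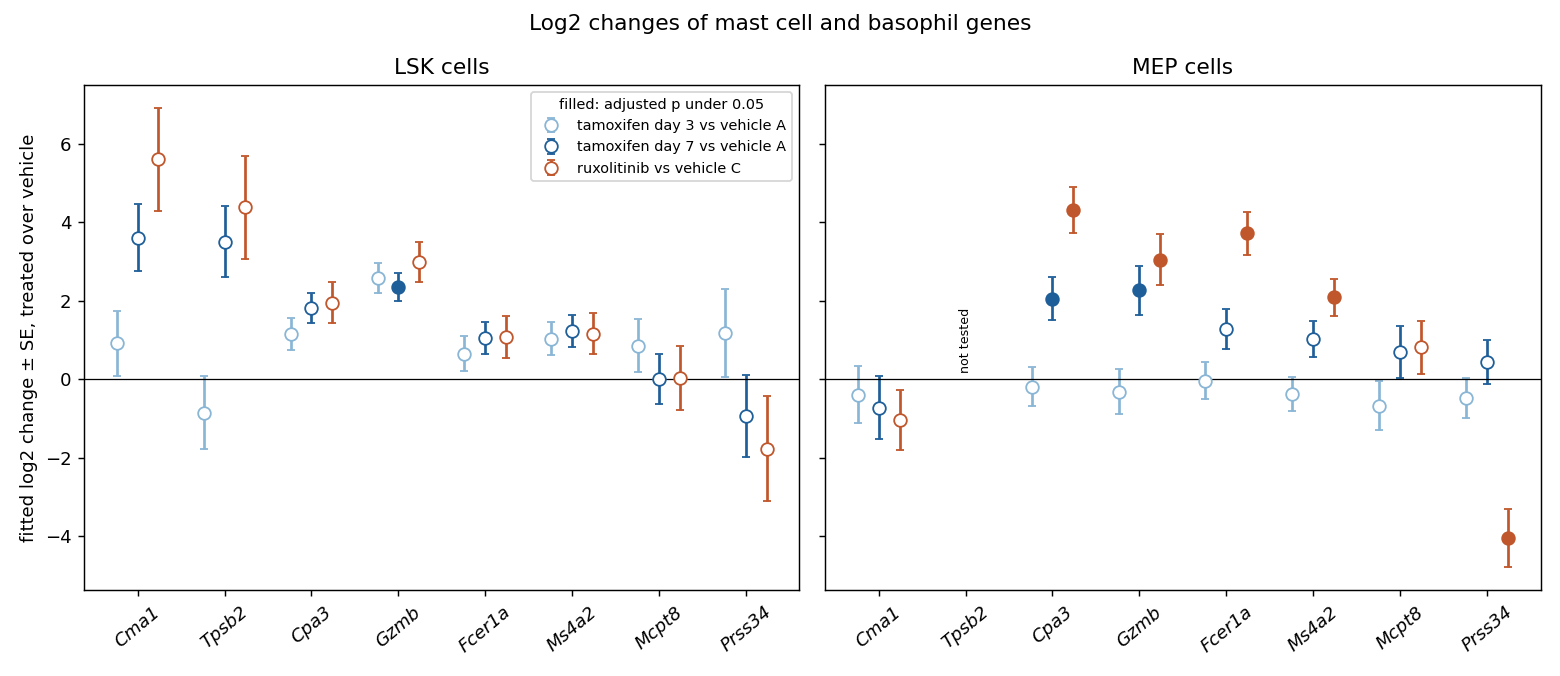
Log2 change of each gene against vehicle of its batch in the 6 treatment comparisons, from the edgeR fits of LSK and of MEP. Bars show ± SE and not the 95% interval. Filled points passed an adjusted p of 0.05: Gzmb in LSK at day 7, Cpa3 and Gzmb in MEP at day 7, and Cpa3, Fcer1a, Gzmb, Ms4a2 and Prss34 in MEP under ruxolitinib, where Prss34 alone fell.

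In MEP the same genes were low. In vehicle A, MEP lay below LSK for all 8 genes, and all 8 were called lower, against 8.71% of all genes. The log2 differences ran from −2.30 ± 0.49 for Gzmb to −6.33 ± 1.20 for Tpsb2 in the fit of all 32 libraries. Prss34 averaged 3.83 ± 1.29 CPM in MEP (n = 3) and 231.7 ± 252.2 CPM in LSK (n = 4). Ms4a2 kept more of its level, at 2.73 ± 0.43 CPM in MEP and 18.5 ± 8.45 CPM in LSK. In vehicle C, 6 of 8 were called lower, against 8.46%, the exceptions being Cma1 (−0.86 ± 0.89) and Tpsb2 (−2.99 ± 1.11, adjusted p = 0.064), whose LSK levels were low there too. No overlap with LSK was seen for 7 of 8 in vehicle A, against 17.8% of all genes, and for 8 of 8 in vehicle C, against 26.2%.

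The order held in 10 of 10 pairs of MEP and LSK libraries that share a group and a number, for each of the 8 genes. Number 12 gives a pair in both vehicle A and vehicle C, so the 10 pairs may not be 10 separate mice. MEP held a median of 0.173% of the LSK level for Tpsb2, 0.583% for Cma1, 1.35% for Prss34, 2.95% for Mcpt8, 3.35% for Cpa3, 5.01% for Fcer1a, 8.40% for Gzmb and 14.7% for Ms4a2. Single pairs spread widely, with MEP at 0.137% to 49.3% of LSK for Cma1 and at 2.53% to 84.2% for Ms4a2. Because the levels were scaled within each cell type, these percentages carry the difference in scaling between the cell types. So does the order within the closest pair, Ms4a2 at 84.2%.

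At day 7 of tamoxifen Cpa3 and Gzmb rose in MEP, and Fcer1a and Ms4a2 were higher in every library without passing the test. Cpa3 had 6.51, 5.74 and 9.35 CPM at day 7, against 2.02, 1.89 and 1.31 CPM in vehicle A, from 123 to 211 counts per library at day 7 and 32 to 48 in vehicle A. Its log2 change was 2.05 ± 0.54 (edgeR adjusted p = 0.015), lost without tamoxifen day 7 replicate 3 (0.0599) or vehicle A replicate 3 (0.0687). Gzmb had 3.42, 4.57 and 5.98 CPM at day 7, against 1.15, 1.14 and 0.613 CPM in vehicle A, with a log2 change of 2.26 ± 0.62 (adjusted p = 0.0194). That call was lost without tamoxifen day 7 replicate 2 (0.0542) or replicate 3 (0.0692), and without vehicle A replicate 1, 2 or 3 (0.051, 0.0563 and 0.0929). The Cpa3 call thus held in 4 of 6 such fits and the Gzmb call in 1 of 6.

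Fcer1a had 3.60, 3.08 and 1.99 CPM in MEP at day 7, against 1.61, 1.14 and 0.858 CPM in vehicle A (log2 change 1.27 ± 0.51, edgeR adjusted p = 0.149). Ms4a2 had 5.11, 7.37 and 4.21 CPM at day 7, against 2.57, 2.405 and 3.23 CPM in vehicle A (1.02 ± 0.46, adjusted p = 0.218). Mcpt8 and Prss34 overlapped vehicle, with log2 changes of 0.69 ± 0.67 and 0.44 ± 0.56. Cma1 and Tpsb2, the 2 genes with the largest ratios in LSK at day 7, stayed low in MEP. Cma1 had 2 to 12 counts per library at day 7 and 3 to 20 in vehicle A, and Tpsb2 had 0 to 9 counts at day 7 and 0 to 5 in vehicle A. Tpsb2 fell under the count filter, so 7 of 8 genes were tested in MEP. Of the 8, 4 were higher without overlap, against 15.2% of all genes, and 2 were called higher, against 1.38%.

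At day 3 of tamoxifen 0 of 8 genes were higher or lower than vehicle without overlap in MEP, against 5.42% of all genes higher and 3.55% lower. Cpa3 had 0.7035, 2.265, 1.38 and 1.76 CPM, against 2.02, 1.89 and 1.31 CPM in vehicle A, and Gzmb had 0.7035, 1.13, 0.7285 and 0.524 CPM, against 1.15, 1.14 and 0.613 CPM. None of the 7 tested was called by edgeR, against 1.21% of all genes, and 0 had an unadjusted p under 0.05. DESeq2 called 0, against 682 of all 25274 genes. The members' median log2 change was −0.38, against 0.0 over all 25274 genes.

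**Figure D3:**
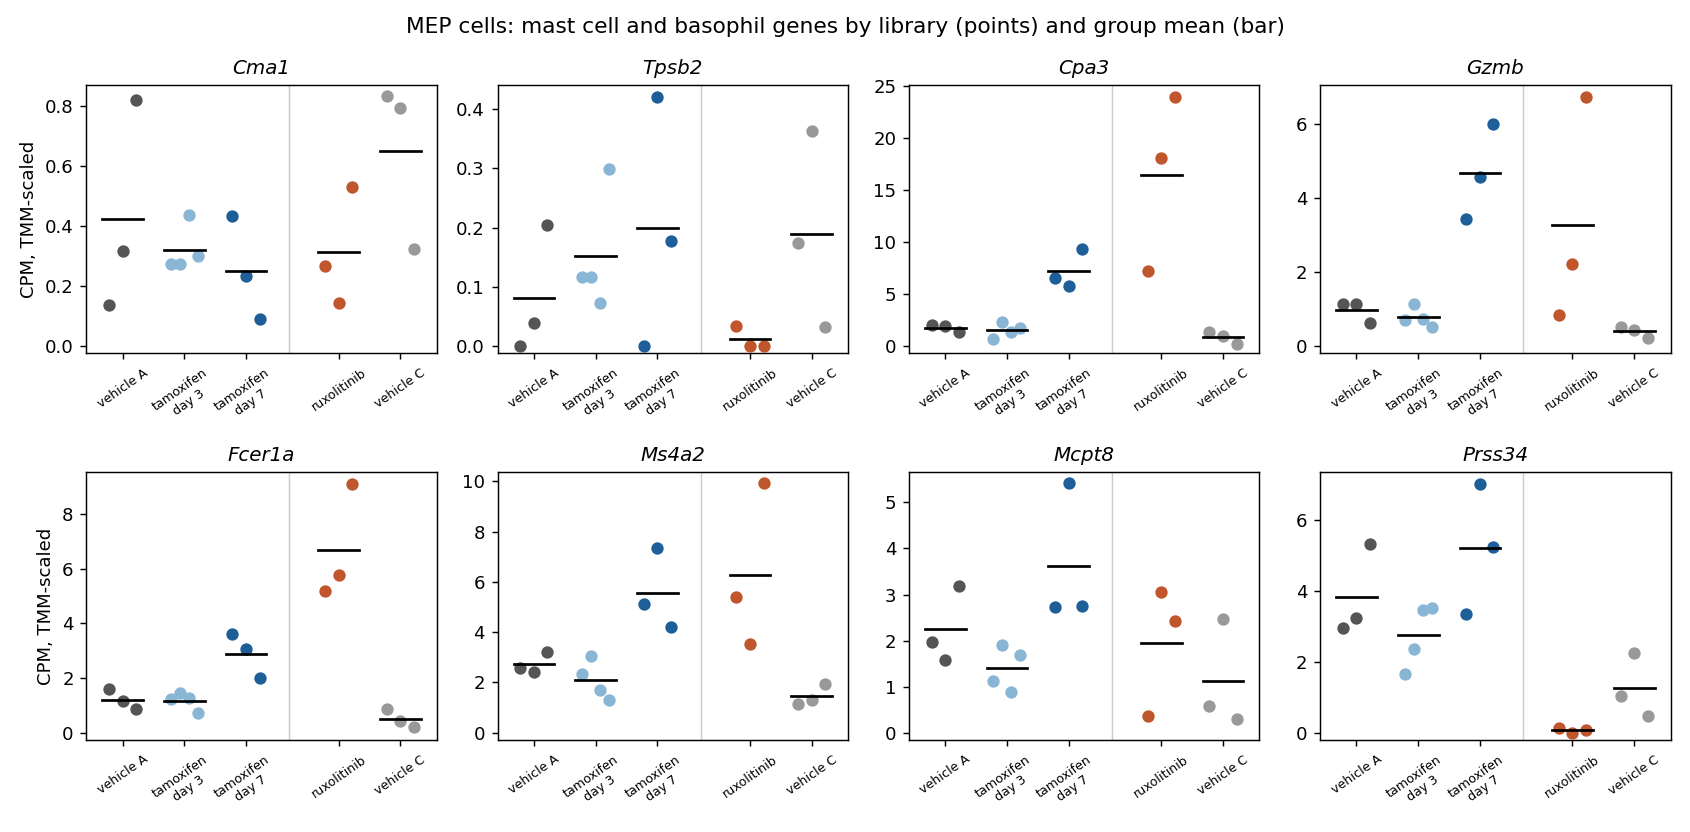
Level of each gene in the 16 MEP libraries (CPM, linear axis), by group, with 1 point per library and a bar at the group mean. Cpa3, Fcer1a, Ms4a2 and Gzmb stand above vehicle C under ruxolitinib in all 3 libraries, while Prss34 is at or below 0.133 CPM there.

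Ruxolitinib gave the widest log2 changes against vehicle in MEP: Cpa3, both IgE receptor chains and Gzmb rose, and Prss34 fell. Cpa3 had 7.22, 18.1 and 23.9 CPM under ruxolitinib, against 1.39, 0.923 and 0.194 CPM in vehicle C. The ratio of means was 19.7 and the log2 change 4.30 ± 0.59, with an edgeR adjusted p of 6.41e-05. Fcer1a had 5.17, 5.75 and 9.10 CPM, against 0.866, 0.429 and 0.226 CPM in vehicle C, a 13.2-fold ratio (log2 change 3.71 ± 0.55, adjusted p = 9.59e-05). Both genes were thus above every vehicle C library in 3 of 3 treated libraries. Vehicle C was a low reference here. Numbers 12, 32 and 33 had less Cpa3, Fcer1a, Ms4a2, Gzmb and Prss34 in MEP of vehicle C than of vehicle A. Number 33 had 0.194 CPM of Cpa3 in vehicle C and 1.31 CPM in vehicle A. Cma1, Tpsb2 and Mcpt8 went both ways. Mean Gzmb was 3.25 CPM under ruxolitinib and 4.66 CPM at day 7 of tamoxifen, while Cpa3, Fcer1a and Ms4a2 had higher means under ruxolitinib.

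Ms4a2 had 5.40, 3.515 and 9.95 CPM under ruxolitinib, against 1.14, 1.32 and 1.94 CPM in vehicle C (2.09 ± 0.47, edgeR adjusted p = 0.00153). Gzmb had 0.828, 2.21 and 6.72 CPM, against 0.520, 0.429 and 0.226 CPM in vehicle C (3.04 ± 0.65, adjusted p = 0.00101). Its first ruxolitinib library, with 25 counts, lay just above vehicle C, and the third was 8.11 times as high as the first. Mcpt8 had 0.3645, 3.06 and 2.435 CPM, against 0.589, 2.47 and 0.291 CPM in vehicle C, overlapping, with a log2 change of 0.81 ± 0.68. Without vehicle C replicate 2 the change reached 2.15 (edgeR adjusted p = 0.0327), the 1 call among 12 alternative fits. Cma1 had 5 to 18 counts under ruxolitinib and 10 to 24 counts in vehicle C, and Tpsb2 had 0 to 1 counts under ruxolitinib and 1 to 11 counts in vehicle C.

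Prss34 was the one gene called lower. It had 4, 0 and 3 counts in the 3 MEP libraries under ruxolitinib, against 30, 68 and 15 counts in vehicle C, or 0.133, 0 and 0.088 CPM against 1.04, 2.24 and 0.485 CPM. The groups did not overlap, and the log2 change was −4.05 ± 0.75 (edgeR adjusted p = 0.000374). Eosinophil genes fell beside it: 7 of them summed to 0.528 to 1.105 CPM under ruxolitinib and 1.33 to 3.19 CPM in vehicle C, 4 of 7 were called lower (Prg3, Ear1, Il5ra and Prg2), where 38.5% of all genes were, and Prg3 and Ear1 were at 0 in all ruxolitinib libraries. In the MEP of day 7, where Prss34 was not called, the same eosinophil genes summed to 8.70 to 17.4 CPM, against 2.80 to 3.76 CPM in vehicle A. There 3 of 7 rose, against 1.38% of all genes called higher. Their part in the Prss34 values was not tested.

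Of the 8 genes, 4 were called higher in MEP under ruxolitinib, against 3.43% of all genes, and 1 lower, against 38.5%. Higher without overlap were 4, against 5.25%, and lower without overlap 1, against 35.4%. The members' median log2 change was 2.09, against −1.07 over all 25274 genes, with −0.93 and −1.31 under other scalings. Among the 8161 genes of at least 10 CPM on average the median was 0.0, with 341 called higher and 782 lower, and with the 2 groups fitted alone it was −0.25 over 17568 genes. At day 7 the scaling matters more: the all-gene median was 0.21, and 0.73 with no scaling beyond the total count, beside a members' median of 1.02.

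Other lineages moved in the same MEP libraries. Erythroid genes, which the MEP gate is meant to hold, summed to 1358 to 2226 CPM at day 7 and 4334 to 5876 CPM in vehicle A, without overlap. There 4 of 6 fell (Tfrc, Rhag, Epor and Klf1), against 7.03% of all genes called lower. Under ruxolitinib they summed to 4111 to 5115 CPM, against 5120 to 7618 CPM in vehicle C. Of the 6, 1 was called higher (Klf1), against 3.43% of all genes, and 1 lower (Tfrc), against 38.5%. Neutrophil progenitor genes summed to 43.3 to 164.6 CPM under ruxolitinib and 4.49 to 13.6 CPM in vehicle C. Of the 9 tested, 5 were called higher (Mpo, Ms4a3, Prtn3, Ctsg and Elane), against 3.43% of all genes, and 2 lower (Ngp and Ltf), against 38.5%. At day 7 they summed to 35.1 to 61.7 CPM, against 12.4 to 14.0 CPM in vehicle A. There 3 of 9 were called higher, against 1.38% of all genes. Megakaryocyte genes summed to 209.9 to 301.4 CPM under ruxolitinib and 37.1 to 77.1 CPM in vehicle C, and to 237.6 to 380.2 CPM at day 7 and 57.75 to 93.6 CPM in vehicle A. Of the cytotoxic list Nkg7 rose in both comparisons, with 89.9 to 115.0 CPM under ruxolitinib and 5.30 to 33.05 CPM in vehicle C. Under ruxolitinib 5 of the 8 tested fell (Prf1, Ncr1, Cd3e, Cd3g and Klrb1c), where 38.5% of all genes were called lower. Cd3e and Gzma were at or below 0.398 and 0.0567 CPM in the ruxolitinib libraries in which Gzmb was high. The part of these cells in the mast cell values was not tested.

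Whether LSK and MEP responded differently was tested gene by gene. Under ruxolitinib the change of Cma1 in MEP minus that in LSK was −6.44 ± 1.32 (edgeR adjusted p = 0.0222), with Cma1 far above vehicle in LSK and at 5 to 18 counts in MEP. It was the 1 call among the 8, against 0.292% of all genes, and its LSK reference was the 2 vehicle C libraries with low Cma1. The call was lost without LSK ruxolitinib replicate 3 (0.0544), LSK vehicle C replicate 2 (0.273), MEP ruxolitinib replicate 1 (0.0704) or replicate 2 (0.132), or MEP vehicle C replicate 2 (0.0539). It was also lost when libraries were blocked by animal number with limma voom (adjusted p = 0.137). Fcer1a and Cpa3 differed the other way, by 2.85 ± 0.69 and 2.58 ± 0.70, without passing (adjusted p = 0.0539 and 0.0942). For Gzmb the difference was 0.23, with a 95% interval of −1.14 to 1.59. At day 7 0 of 8 were called by edgeR, against 0.458% of all genes. An unadjusted p under 0.05 was found for 1, Cma1, ranking 262 of 28378 genes by p. DESeq2 called 1, against 897 of all 28378 genes. There Cma1 had −4.42 ± 1.22 (adjusted p = 0.101) and reached a call without LSK vehicle A replicate 4. At day 3 0 of 8 were called by edgeR, against 0.0529%. An unadjusted p under 0.05 was found for 3, the weakest ranking 797 of 28378 genes by p. DESeq2 called 1, against 73 of all 28378 genes. Gzmb came nearest there, at −2.87 ± 0.65 (adjusted p = 0.139).

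Set against their lengths, the genes shared out the signal of the set differently between groups. In CPM per kb of exon, Cma1 and Tpsb2 held 22.1% to 35.2% of the sum of the 8 genes in LSK at day 7 and 0.146% to 20.3% in vehicle A, which did not overlap. They held 8.13% to 26.3% under ruxolitinib and 0.352% to 1.83% in vehicle C. The basophil proteases Mcpt8 and Prss34 held 29.4% to 36.3% at day 7 and 35.8% to 81.3% in vehicle A, and 19.99% to 54.1% under ruxolitinib and 56.45% to 87.3% in vehicle C. In MEP under ruxolitinib Cpa3 held 36.1% to 50.4%, against 5.79% to 18.8% in vehicle C, and Mcpt8 and Prss34 held 3.60% to 13.0%, against 29.65% to 61.0% in vehicle C. The shares sum to the whole, so a larger share of one gene makes the others smaller. All 8 together took 0.0184% to 0.244% of an LSK library's counts and 0.00029% to 0.0065% of a MEP library's, which is 115 to 1798 counts in MEP.

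**Figure D4:**
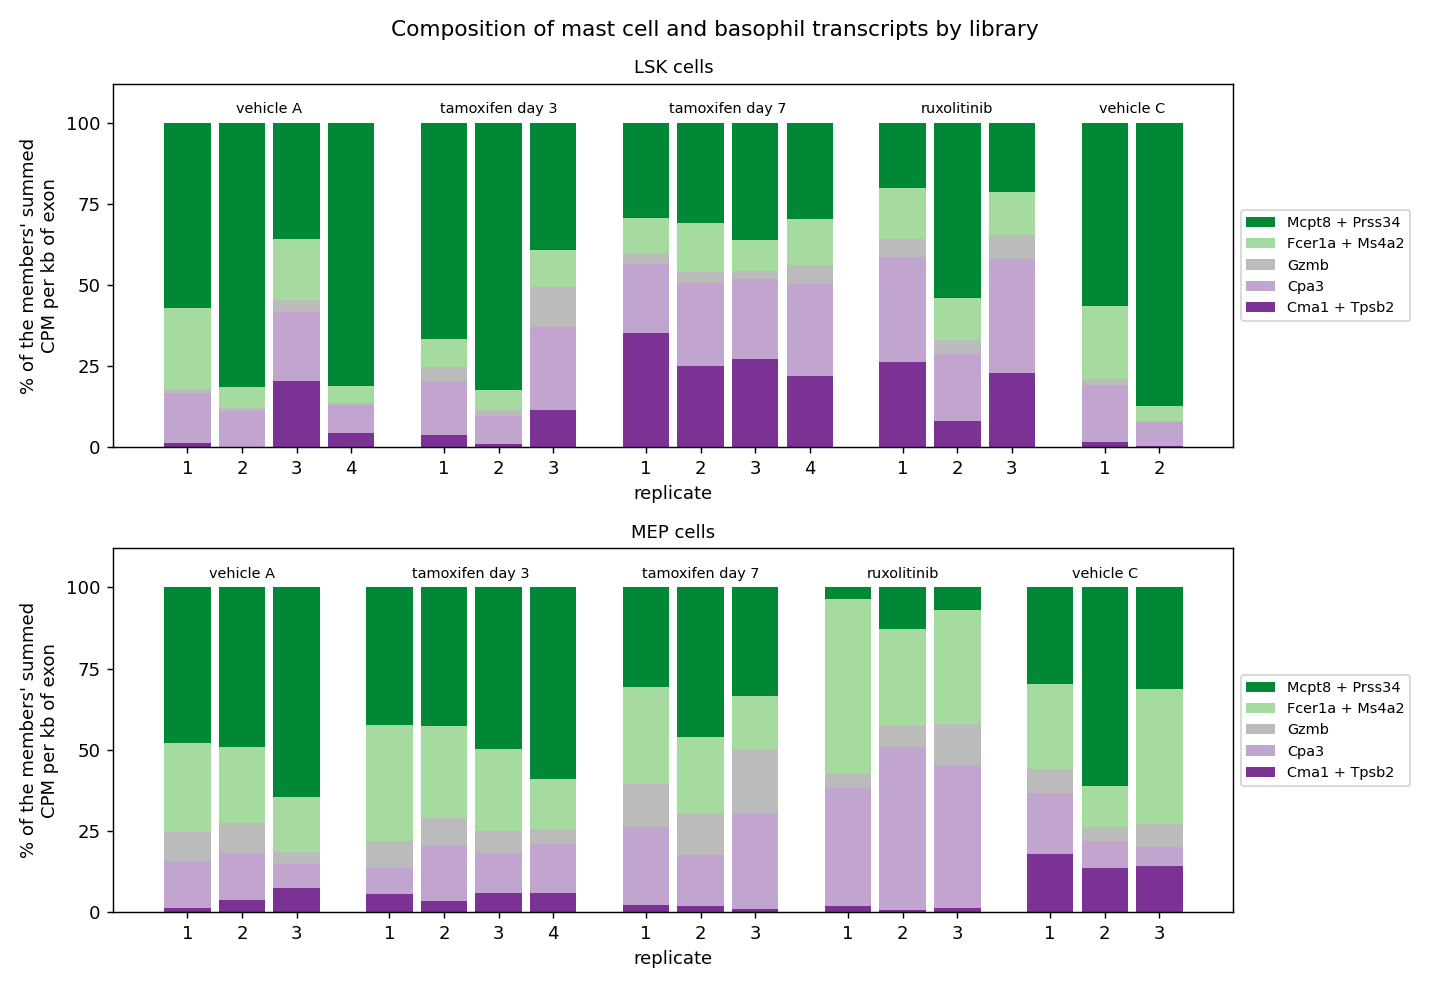
Share of the summed level of the 8 genes (percent of their CPM per kb of exon) held by Cma1 and Tpsb2, by Cpa3, by Gzmb, by Fcer1a and Ms4a2 and by Mcpt8 and Prss34, in each of the 32 libraries. Cma1 and Tpsb2 take 22.1% to 35.2% in LSK at tamoxifen day 7, and Cpa3 takes 36.1% to 50.4% in MEP under ruxolitinib.

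The order of the groups followed the cell type first. For each of the 8 genes the means of all 5 LSK groups stood above the means of all 5 MEP groups, with levels scaled within each cell type. The margin was small for Gzmb, at 4.865 CPM in LSK of vehicle C and 4.657 CPM in MEP at day 7, which overlapped. Ms4a2 had 9.145 CPM in LSK of vehicle C and 6.288 CPM in MEP under ruxolitinib, which overlapped too. As each cell type has its own scaling, the order of these groups is uncertain. Cma1 was highest in LSK at day 7 (124.4 CPM), then under ruxolitinib (77.4 CPM), at day 3 (19.3 CPM), in vehicle A (10.3 CPM) and in vehicle C (1.59 CPM). Of these neighbours the ruxolitinib and day 3 groups did not overlap, and the others did. For Cpa3 neighbours overlapped throughout LSK, from 223.7 CPM at day 7 and 220.2 CPM under ruxolitinib to 57.1 CPM in vehicle C. In MEP Cpa3 stood at 16.4 CPM under ruxolitinib and 7.20 CPM at day 7, which overlapped, and then at 1.74 CPM in vehicle A, below both without overlap. Per kb of exon, Cpa3 had the highest mean of the set in LSK at day 7 at 147.5 CPM per kb, followed by Cma1 at 114.2 CPM per kb. In LSK of vehicle A Prss34 had the highest mean, at 189.9 CPM per kb, carried by replicates 2 and 4 (255.1 and 453.2 CPM per kb), while in replicates 1 and 3 it had 44.5 and 6.99 CPM per kb, below Mcpt8 at 50.85 and 34.7 CPM per kb.

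Among 53 other mast cell and basophil genes, 52 were in the table. In LSK 51 were tested and none was called by edgeR in any of the 3 comparisons. Hdc, which makes histamine, came nearest, with 198.4 ± 53.9 CPM at day 7 and 58.9 ± 20.6 CPM in vehicle A (n = 4 each; log2 change 1.75 ± 0.36, adjusted p = 0.067). It did not follow under ruxolitinib, at 64.4 ± 21.7 CPM and 60.9 ± 34.9 CPM in vehicle C. The median change of the list in LSK was −0.01 at day 7 and 0.16 under ruxolitinib, against −0.09 and −0.25 over all genes.

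In MEP 46 of the 53 were tested. At day 7, 11 rose and 1 fell, against 1.38% of all genes called higher and 7.03% lower. Ptgs1, the cyclooxygenase of prostaglandin synthesis, had 13.8 ± 2.77 CPM at day 7 and 1.83 ± 0.62 CPM in vehicle A (n = 3 each; 2.91 ± 0.45, edgeR adjusted p = 6.7e-05). Slc18a2, which loads amines into vesicles, had 66.2 ± 19.4 CPM and 17.4 ± 1.88 CPM in vehicle A (adjusted p = 7.1e-05). The signalling adaptor Lcp2 rose as well, by 2.46 ± 0.47 (adjusted p = 0.000723). Gab2, an adaptor below Kit and the IgE receptor, fell to 3.91 ± 1.20 CPM, against 44.8 ± 12.6 CPM in vehicle A. Kit and Gata2 were also called higher, at 1.42 ± 0.34 and 1.32 ± 0.41, and the gamma chain Fcer1g rose by 2.14 ± 0.50. Kit lost its call without vehicle A replicate 2 (0.0626), and Gata2 without tamoxifen day 7 replicate 1, 2 or 3 (0.0938, 0.0836 and 0.159) and without vehicle A replicate 2 or 3 (0.247 and 0.109).

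Under ruxolitinib 12 of the 46 rose in MEP, against 3.43% of all genes, and 9 fell, against 38.5% of all. Serpinb1a, a protease inhibitor of granulocytes, had 28.7 ± 11.5 CPM under ruxolitinib and 3.31 ± 1.84 CPM in vehicle C (n = 3 each; 3.11 ± 0.42, edgeR adjusted p = 6.36e-05). Ptgs1 rose by 2.83 ± 0.45, Fcer1g by 2.69 ± 0.51, Rgs1, a brake on G-protein signalling, by 3.02 ± 0.59, and Gata2 by 2.06 ± 0.41. Tpsab1 fell, with 0 to 0.482 CPM under ruxolitinib and 0.323 to 1.73 CPM in vehicle C, and lost that call without ruxolitinib replicate 1 or 3 (0.0719 and 0.073) or vehicle C replicate 1 (0.127). At day 3 0 rose and 2 fell in MEP, against 1.21% of all genes called in either direction, Gab2 (−4.47 ± 0.48, adjusted p = 4.19e-06) and Lat (−2.01 ± 0.50, adjusted p = 0.0463). Lat lost its call without any one of 6 libraries, day 3 replicates 1 to 4 and vehicle A replicates 1 and 3. Several of these genes serve other lineages too, platelets among them for Ptgs1, Slc18a2 and Lat.

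Once group means were taken out, the 8 genes varied together unevenly over the 16 LSK libraries. Ms4a2 and Cpa3 followed the mean of the other 7 most closely (Pearson r = 0.83 and 0.82), and Tpsb2 and Prss34 least (0.31 and 0.22). Of 9677 other genes at 10 CPM or more on average, those most like the mean deviation of the set in LSK were Alox5 (r = 0.87), the 5-lipoxygenase of leukotriene synthesis, Slpi (0.80), Lrsam1 (0.79), Ppm1b (0.78) and Sec63 (0.78). In MEP, over 16 libraries, 8050 genes and the 6 members at 1 CPM or more, they included Sla (0.83), Serpinb1a (0.79) and Tbxas1 (0.77). These r values describe libraries that share depth and sort, and are given without a test.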

How the data were processed

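The 8 genes and all gene lists were chosen with earlier results of these data known. The authors deposited unnormalized gene counts, made with STAR and featureCounts on mm10 per the submitters' processing notes; the labels give no versions, annotation, strand setting or rule for reads that match several genes. Sorted cells went into TriZOL, and a Zymo Direct-Zol kit and a paired-end Takara HT-Seq kit gave RNA and libraries, per the labels' protocols. Groups follow the labels' cell type, treatment, timepoint and batch.

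Counts were fitted with edgeR 4.0.16 in R 4.3.3 (TMM scaling, filterByExpr with a minimum count of 10, quasi-likelihood test, two-sided, Benjamini-Hochberg at 0.05), with all 16 libraries of a cell type sharing 1 spread. This left 26930 genes in LSK and 25274 in MEP. MEP was set against LSK, and the difference of their responses tested, in a fit of all 32 libraries and 28378 genes. The SE of a log2 change was taken from its F statistic. CPM were computed from counts scaled with the TMM factors of the cell type (0.609 to 1.32 in LSK, 0.636 to 1.92 in MEP), and divided by GENCODE M21 exon length for levels per kb. No overlap means that every library of one group lay above every library of the other. Depth sets precision: the shallowest library holds 11.16 M counted reads, and values of a few counts carry wide counting error. The tests were tried on counts simulated with the fits' own spread, with changes set only in better-covered genes. That trial does not cover genes as low as most of the set in MEP. DESeq2 1.42.0, limma 3.58.1, other scalings and filters, a replicate block and leaving out each library served as alternatives. The text names all 8 genes, up to 4 other mast cell and basophil genes with the lowest p per comparison among those called, Kit, Gata2, Hdc, Fcer1g and Tpsab1 in any case, and the 5 most similar genes per cell type, some of which are not reported here; genes of marker lists for other cell types are named where they were called or define the type.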

Additional observations from a re-analysis of the deposited data

Results flagged for a closer look

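Cma1 in MEP at tamoxifen day 3 had 1 library apart from the other 3: replicate 3 held 0.437 CPM, from 12 counts, and its gap to the next made up 0.840 of the group's whole range. Fcer1a in LSK at tamoxifen day 7 had a like case, with replicate 1 at 84.25 CPM and a gap of 0.843 of the range. Both passed the limit for 4 samples, which chance passes in about 1 of 20 groups, and 24 such groups were looked at. The response of Cma1 to ruxolitinib differed between MEP and LSK by −6.44 ± 1.32 on the log2 scale (edgeR adjusted p = 0.0222).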

How the results depend on the processing

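Of 1083 values of single genes under alternatives, 980 kept direction and side of the threshold, 44 lost a call, 30 gained one and 29 changed sign, 0 of these with a call in either fit. Of 169 alternative counts, 129 stayed within 1.5 times. The number of the 8 genes called in LSK at day 7 (1) was 4 with DESeq2, 2 with no scaling beyond the total count (chosen after seeing the data), 2 with no count filter, 2 among genes of at least 10 CPM on average and 0 in the 2 groups alone. In LSK at day 3 (0) it was 1 with DESeq2 and 1 with no count filter, and in LSK under ruxolitinib (0) it was 1 with RLE size factors, 3 with DESeq2, 1 with no count filter and 2 in the 2 groups alone. In MEP at day 7 (2) it was 4 with DESeq2. For the difference between cell types it was 1 with DESeq2 at day 3 (0) and at day 7 (0), and under ruxolitinib (1) it was 0 with no scaling, 4 with DESeq2 and 0 among genes of at least 10 CPM. The causes were not tested. Leaving out each library in turn gave 0 to 1 calls in LSK at day 3, 0 to 4 at day 7 and 0 to 0 under ruxolitinib, 0 to 0 in MEP at day 3, 0 to 2 at day 7 and 5 to 6 under ruxolitinib, 8 to 8 and 6 to 6 for MEP against LSK in vehicle A and C, and 0 to 0, 0 to 1 and 0 to 3 for the differences at day 3, day 7 and under ruxolitinib. A filter at 10 CPM left no member tested in MEP.

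Replicate numbers did not pair the libraries, since same-numbered deviations correlated at −0.331 to 0.354. With a replicate block 3 genes were called in LSK at day 7 and 2 for the ruxolitinib difference, where blocking by animal number with limma voom gave 0 (correlation within animals 0.0449). It turned Mcpt8 and Prss34 in LSK at day 7 to 0.49 and 1.02, and Fcer1a in MEP at day 3 to 0.19, and no other count moved by over 1.5 times.

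Signs turned only where changes were uncalled. Mcpt8 in LSK at day 7 (−0.00) was 0.02 with RLE, 0.04 with no scaling, 0.02 with DESeq2, 0.02 with no count filter, 0.01 at 10 CPM and 0.10 in the 2 groups alone, and −0.29 to 0.58 with a library left out. Mcpt8 in LSK under ruxolitinib (0.03) was −0.14 with no scaling, −0.04 with no count filter, −0.11 at 10 CPM, −0.04 in the 2 groups alone, and −0.37 to 0.84 with a library left out. Leaving out libraries spread LSK day 3 values over −1.02 to 1.42 (Mcpt8), −0.30 to 0.95 (Fcer1a) and −0.60 to 2.07 (Prss34), Prss34 in LSK under ruxolitinib over −4.28 to 0.26, and Cma1 in MEP at day 7 over −1.39 to 0.17. In MEP at day 3 it spread Cma1 over −0.79 to 0.50, Cpa3 over −0.44 to 0.08 and Fcer1a over −0.22 to 0.23.

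With no replicate left out, calls over all genes ranged with the setting. In LSK they ran over 0 to 93 at day 3 (main 0), 9 to 334 at day 7 (28) and 6 to 132 under ruxolitinib (6). In MEP they ran over 212 to 773 at day 3 (306), 2108 to 3110 at day 7 (2128) and 1123 to 11801 under ruxolitinib (10605). For MEP against LSK they ranged over 4327 to 6210 in vehicle A (4941) and 2391 to 6129 in vehicle C (4698), and for the differences over 7 to 73 (15), 52 to 1055 (130) and 21 to 629 (83). With no scaling beyond the total count the calls were 31 higher and 12 lower in LSK at day 7 (main 15 and 13), 1 and 7 in LSK under ruxolitinib (2 and 4; RLE 4 and 4), 1429 and 1072 in MEP at day 7 (350 and 1778), 1818 and 3981 for MEP against LSK in vehicle A (2468 and 2473), 1431 and 3643 in vehicle C (2297 and 2401), 398 and 85 for the day 7 difference (84 and 46) and 19 and 13 for the ruxolitinib difference (35 and 48). Cma1 and Tpsb2 are too shallow in MEP, at up to 24 and 11 counts, to show small changes.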
